A study of Mus musculus with 4 samples.

Results

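Glucose carbon genes were examined in cultured mouse hair follicle stem cells (HFSCs). They were 32 genes, listed by gene symbol, out of 24346 gene symbols listed in each library. They cover glucose and lactate transport, glycolysis, the pentose phosphate pathway and the entry of pyruvate into mitochondrial metabolism. The cells came from dorsal skin of C3H/HeN mice with no genetic change named, had been sorted for CD49f and CD34, and were grown in the serum-free medium M-CnT with 1 passage a week. RNA was compared after 10 passages (10p-HFSCs, 2 libraries) and after 48 passages (48p-HFSCs, 2 libraries). Neither the labels nor the methods say that libraries of 1 group came from separate cultures, so p-values measure the spread between these libraries, which may be technical. Every group is a culture with no uncultured cells beside it, and passage number, culture time and age of the culture cannot be told apart.

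Glycolysis breaks glucose down to pyruvate in the cytosol, with hexokinase and phosphofructokinase as its regulated early steps, and lactate dehydrogenase regenerates the NAD+ that glyceraldehyde phosphate dehydrogenase uses. The pentose phosphate pathway branches off at glucose 6-phosphate: its oxidative arm yields NADPH and its non-oxidative arm exchanges sugar phosphates with glycolysis. Pyruvate dehydrogenase acts on pyruvate inside the mitochondria and is switched off by the PDK kinases. Hair follicle stem cells are known for high glycolytic activity and lactate production in the skin.

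The deposited values were FPKM, which the paper defines as fragments scaled to transcript length and to the mapped fragments of the library. They carry no read totals, so the depth is unknown. Factors that bring libraries to the same typical gene level (median-of-ratios) lay between 0.987 and 1.013. Scaling by them therefore stays close to the values as deposited. Whether the software had scaled by mapped fragments or by such factors was not tested. Spacing of low values put the depth, or the factor used in its place, at 71.6%, 82.9% and 46.7% of that of 10p replicate 1. These are for 10p replicate 2, 48p replicate 1 and 48p replicate 2, respectively. Summed FPKM ran from 581516 to 719012 in the first 3 libraries and reached 1414953 in 48p replicate 2. Keratinocyte markers (8 of 8 tested) summed to between 3244 and 13060 FPKM, with 2 (Itga6 and Itgb4) called higher in 48p-HFSCs and 0 lower. The log2 difference was above 0 for 6 of them and below 0 for 2, Epcam and Krt15. Epcam was at 338 and 288 FPKM in 10p-HFSCs, as against 150 and 238 in 48p-HFSCs. Krt15 was at 136 and 82.6 FPKM and then at 425 and 18.8, so its 48p replicates lay far apart. Cd34, a defining marker of these cells, stayed at or below 0.234 FPKM in all libraries. Of 8 follicle stem cell markers 6 failed the low-value filter, whereas Sox9 was called lower in 48p-HFSCs. By contrast, the paper reports most cells as CD34-positive by flow cytometry in both the early and the late culture. By qRT-PCR it reports Cd34 and Krt15 as maintained, and Lhx2 and Sox9 as increased in the late culture. Lhx2 was at 0.0241 and 0 FPKM in 10p-HFSCs and listed at 0 in both 48p libraries. Why the FPKM of Cd34, Lhx2 and Sox9 differ from those measurements was not tested. Fibroblast markers (3 of 10 tested) summed to 361 and 392 FPKM in 10p-HFSCs, as against 3.81 and 5.74 in 48p-HFSCs, with 2 (Vim and Col1a2) called lower. Most of the 10p sums came from Vim, at 284 and 327, and Col1a2, at 67.6 and 59.3. Fn1 was at 8.03 and 4.34 and then at 1.28 and 2.42. Of the others, Col1a1 was at most at 0.903, Pdgfra at 0.284, Col3a1 at 0.195 and Pdgfrb at 0.034, and Dcn, Lum and Thy1 were at 0 in all libraries. The summed leukocyte markers were at or below 0.993 FPKM in 10p-HFSCs, as against 64.3 and 104 in 48p-HFSCs (Cd74 and Lyz2 called higher), with 61.2 and 102 of these from Cd74 alone, Ptprc at most at 0.0711, Cd3e, Tyrobp and Cd207 at 0 in all libraries and Fcer1g at 0 in both 48p libraries. The summed markers of melanocytes were at most 11.9 FPKM and those of endothelium at most 2.87. Of 7 proliferation markers 2 (Pcna and Mcm2) were called lower, and their sum ran from 370 to 680 FPKM. The part of these differences in the results below was not tested, and in bulk RNA fewer cells of a type and less RNA per cell cannot be told apart.

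Most of the 32 genes were not called between 10 and 48 passages. Pfkm, Pfkfb3 and G6pdx fell in 48p-HFSCs and none was called higher, on log2(FPKM + 1) with limma and Benjamini-Hochberg adjustment over all 11018 genes tested, at an adjusted p under 0.05 and a log2 difference of at least 1 in size. Of the 32 genes, 28 passed the filter (2 or more libraries at an FPKM of 1 or above), and Slc2a3, Eno2, Ldhb and Slc16a3 did not. The 3 genes lower were 10.7% of those tested beside 9.15% of all genes tested (1008), and the 0 higher stood beside 10.8% (1189). At an unadjusted p under 0.05, 4 of the 28 were higher and 5 lower, together 32.1% beside 37.4% of all genes (4118). The libraries of the groups did not overlap for 9 genes on the higher side, 32.1% beside 31.7% of all genes. On the lower side they did not overlap for 6, 21.4% beside 34.3%. On TPM these counts turned to 4 higher and 11 lower. The share of all genes apart on TPM was not counted, so nothing particular to the 32 genes is read from that turn. The median log2 difference was 0.21 over the 28 genes and -0.03 over all genes.

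These figures depended on the scale between libraries. After each library was rescaled to the same summed FPKM (TPM), the median of all genes moved to -0.56 and that of the 28 genes to -0.37, so the genes lay 0.24 above the median of all genes on FPKM and 0.18 above it on TPM. TPM made 623 calls higher and 812 lower over all genes, which is 43.4% higher against 54.1% on FPKM, yet the same 3 of these genes were called lower and 0 higher. On both scales the groups stayed apart with higher values in 48p-HFSCs for Gapdh, Pdk2, Taldo1 and Tkt. They stayed apart with lower values for Slc2a1, Pfkm, Pfkfb3, Slc16a1, G6pdx and Pgd. How many of all genes stayed apart on both scales was not counted. The direction turned from higher to lower with TPM for 9 genes, namely Hk1, Gpi1, Pfkl, Pfkfb2, Aldoa, Pgk1, Pgam1, Pkm and Pdk3.

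**Figure D1:**
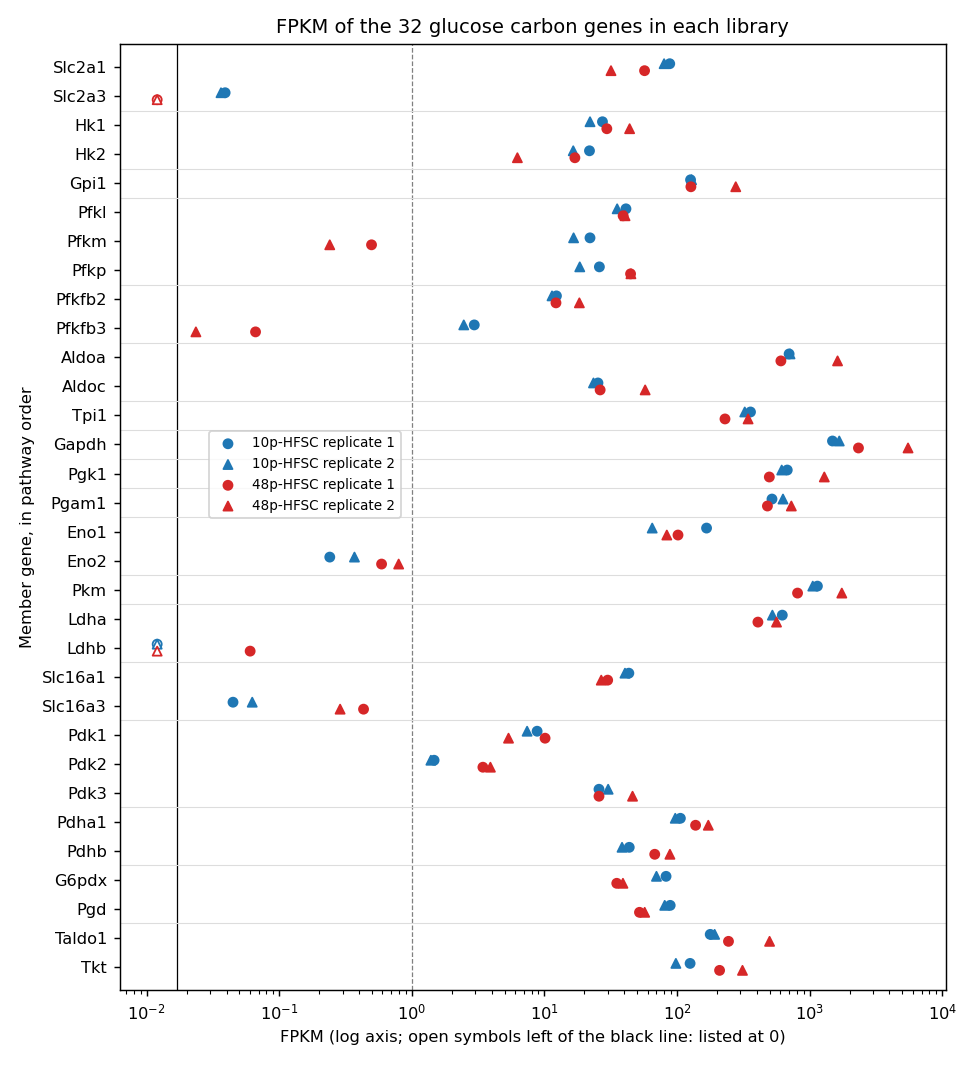
FPKM of each of the 32 genes (log axis) in each library, in pathway order, with 10p-HFSCs in blue, 48p-HFSCs in red, replicate 1 as circles, replicate 2 as triangles and a dashed line at an FPKM of 1. Open symbols left of the black line stand for values listed at 0; Pfkm and Pfkfb3 lie between 2.46 and 22.1 FPKM in 10p-HFSCs and below 0.5 in 48p-HFSCs.

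**Figure D2:**
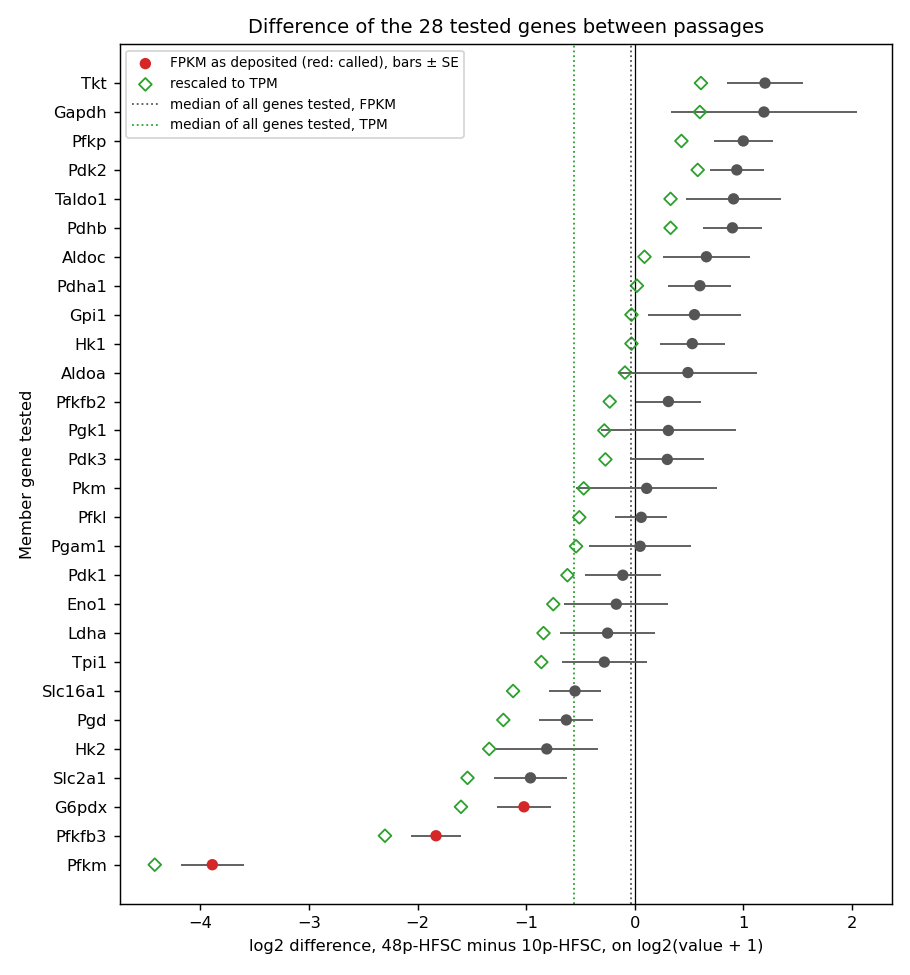
Log2 difference (48p-HFSC minus 10p-HFSC, on value + 1) of the 28 tested genes, with filled points and standard error bars for FPKM, red where called, and open diamonds for TPM. Dotted lines mark the median of all 11018 genes on each scale, at -0.03 for FPKM and -0.56 for TPM; the 3 red points are Pfkm, Pfkfb3 and G6pdx.

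Glucose enters most cells through carriers of the SLC2A family. Slc2a1, the basal glucose carrier GLUT1, was at 88.1 and 79.9 FPKM in 10p-HFSCs, as against 56.9 and 31.8 in 48p-HFSCs. Both late libraries lay below both early ones, with a log2 difference of -0.96 (SE 0.34) that did not pass (adjusted p = 0.10) and ran from -1.37 to -0.55 without 1 library. Slc2a3, a high-affinity carrier best known from neurons, was at 0.0391 and 0.0364 FPKM in 10p-HFSCs and listed at 0 in both 48p libraries.

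Hexokinase traps glucose as glucose 6-phosphate. Hk1, the widely expressed form, read 27.4 and 22.1 FPKM in 10p-HFSCs, as against 29.5 and 43.9 in 48p-HFSCs, while Hk2, the inducible form, read 21.9 and 16.5 and then 17.0 and 6.25. The log2 differences were 0.53 (SE 0.30, adjusted p = 0.24) for Hk1 and -0.81 (SE 0.47, adjusted p = 0.26) for Hk2, and Hk2 of the first 48p library lay within the 10p range. Without 1 library the Hk2 difference ran from -1.46 to -0.15. Within a library, where the scale between libraries drops out, Hk1 made up 55.6% and 57.2% of the summed FPKM of both genes in 10p-HFSCs, as against 63.5% and 87.5% in 48p-HFSCs. The share was higher in both late libraries, with an exact two-sided permutation p of 0.33, the smallest that 2 against 2 libraries can give. Gpi1, the isomerase that makes fructose 6-phosphate, was at 126 and 129 FPKM and then at 127 and 277, so only the second 48p library stood away from the others.

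Phosphofructokinase, the committed step, differed in the levels of its isoforms, while its summed levels overlapped between the groups. Pfkm, the muscle-type subunit (chromosome 15, 98092589 to 98132451, mm10), was at 22.1 and 16.6 FPKM in 10p-HFSCs, as against 0.496 and 0.240 in 48p-HFSCs. It fell from a mean of 19.3 ± 3.87 to 0.368 ± 0.181 (SD, n = 2 each), a ratio of 52.5, with a log2 difference of -3.89 (SE 0.29, adjusted p = 0.0012), and was called under each of the 13 alternatives tried (log2 difference from -5.42 to -3.69). Pfkp, the platelet-type subunit (chromosome 13, 6579768 to 6648777), was at 25.97 and 18.5 FPKM and then at 44.6 and 44.9. Its 48p libraries lay close together above both 10p libraries, but the log2 difference of 1.0 (SE 0.27) narrowly missed (adjusted p = 0.052), passing with median-of-ratios scaling (1.02, adjusted p = 0.048) and falling to 0.43 on TPM (adjusted p = 0.60). Pfkl, the liver-type subunit, overlapped between the groups at 41.2 and 35.4 against 39.2 and 40.5 FPKM (log2 difference 0.06, SE 0.24, adjusted p = 0.87).

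The summed FPKM of the 3 subunits was 79.8 ± 13.3 in 10p-HFSCs and 85.0 ± 0.954 in 48p-HFSCs (SD, n = 2 each). Within that sum Pfkm took 24.7% and 23.6% in 10p-HFSCs, as against 0.589% and 0.280% in 48p-HFSCs. Pfkp took 29.1% and 26.2% and then 52.9% and 52.4%, and Pfkl 46.2% and 50.2% and then 46.5% and 47.3%. The Pfkm and Pfkp shares thus kept apart between the groups (exact permutation p = 0.33 each), while the Pfkl shares overlapped. These shares hold for summed FPKM at the scale of single genes, since the files do not separate transcripts of a gene.

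The PFKFB enzymes make and break down fructose 2,6-bisphosphate, the activator of phosphofructokinase. Pfkfb3, the inducible form with high kinase activity (chromosome 2, 11471433 to 11554077), was at 2.96 and 2.46 FPKM in 10p-HFSCs, as against 0.0662 and 0.0235 in 48p-HFSCs. It fell 60.4-fold on the means (2.71 ± 0.348 against 0.0449 ± 0.0302, SD, n = 2 each), with a log2 difference of -1.83 (SE 0.23, adjusted p = 0.0047) that the pseudocount holds down at such low values. The call was lost without 10p replicate 1 (-1.73, adjusted p = 0.060) or 10p replicate 2 (-1.92, adjusted p = 0.051), each of which leaves 1 library in that group. Pfkfb2, a form regulated by hormonal signaling, was at 12.3 and 11.4 FPKM and then at 12.2 and 18.3 (adjusted p = 0.47). Its share of the sum of Pfkfb2 and Pfkfb3 went from 80.6% and 82.2% to 99.5% and 99.9%. That pair leaves out Pfkfb4, at 2.83 and 3.44 FPKM and then at 2.74 and 2.39. It also leaves out Pfkfb1, at 1.62 and 1.42 and then at 4.34 and 4.22. Shares over all PFKFB genes were not computed, so the part of Pfkfb2 in the whole step is not given.

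**Figure D3:**
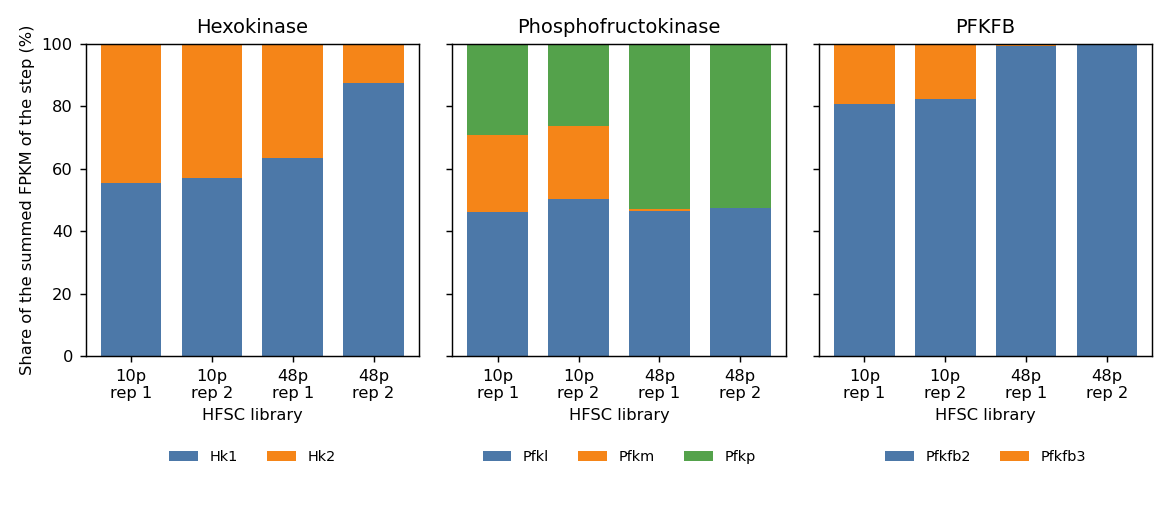
Share of each gene in the summed FPKM of its step (percent) in each of the 4 libraries, for hexokinase, phosphofructokinase and PFKFB. The PFKFB panel holds Pfkfb2 and Pfkfb3 alone, without Pfkfb1 and Pfkfb4. The orange segment of phosphofructokinase (Pfkm) takes 24.7% and 23.6% in 10p-HFSCs and under 1% in 48p-HFSCs, where the green one (Pfkp) takes 52.9% and 52.4%.

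The start-site windows of the 3 genes that fell and of Pfkp, whose share was higher where that of Pfkm was lower, are shown. They place ACGTG, a form of the hypoxia-response core, beside the values of these genes. Each window spans a start site in RefSeq (GRCm38.p6), most of it upstream, is printed 5′ to 3′ on the strand of the gene, and is the one with most CpG where a gene has several starts. Capitals mark ACGTG read on either strand, which also covers the E-box CACGTG.
Pfkm (chr15:98108306-98108605, plus strand): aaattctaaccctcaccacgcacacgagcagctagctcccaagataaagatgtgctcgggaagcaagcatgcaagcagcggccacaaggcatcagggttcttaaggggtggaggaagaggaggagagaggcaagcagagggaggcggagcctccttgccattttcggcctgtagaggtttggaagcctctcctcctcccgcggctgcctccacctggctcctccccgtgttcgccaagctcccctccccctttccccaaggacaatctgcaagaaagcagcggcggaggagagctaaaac
Pfkp (chr13:6648722-6649021, minus strand): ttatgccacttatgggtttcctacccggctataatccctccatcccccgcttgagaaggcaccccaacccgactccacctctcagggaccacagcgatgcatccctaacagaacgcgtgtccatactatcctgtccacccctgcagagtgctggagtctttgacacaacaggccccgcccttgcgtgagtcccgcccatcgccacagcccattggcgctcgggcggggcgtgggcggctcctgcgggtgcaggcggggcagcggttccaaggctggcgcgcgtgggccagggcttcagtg
Pfkfb3 (chr2:11553880-11554179, minus strand): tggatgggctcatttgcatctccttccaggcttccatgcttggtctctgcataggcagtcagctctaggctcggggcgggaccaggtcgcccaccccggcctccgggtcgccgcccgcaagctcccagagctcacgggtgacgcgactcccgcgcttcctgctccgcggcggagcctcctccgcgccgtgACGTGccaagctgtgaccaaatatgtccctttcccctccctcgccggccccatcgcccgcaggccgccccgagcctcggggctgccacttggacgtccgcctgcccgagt
G6pdx (chrX:74428831-74429130, minus strand): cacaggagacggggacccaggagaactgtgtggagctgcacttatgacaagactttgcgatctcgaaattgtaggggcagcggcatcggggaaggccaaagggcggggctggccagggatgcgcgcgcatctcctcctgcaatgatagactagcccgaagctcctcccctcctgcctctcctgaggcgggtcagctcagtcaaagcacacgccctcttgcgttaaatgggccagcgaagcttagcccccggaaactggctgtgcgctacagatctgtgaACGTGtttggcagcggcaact

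The windows of Pfkfb3 and G6pdx printed above hold 1 copy of ACGTG each, while those of Pfkm and Pfkp hold 0. GCGTG, another form of the core, was not searched. On either strand it can be read in the printed windows of Pfkm, Pfkp and G6pdx. A window with 0 copies of ACGTG is thus not one without the core. Of the 4 windows of Pfkm 2 hold a copy, and both windows of Pfkfb3 do. A window was found for 31 of the 32 genes, Slc2a3 being the gene with none. Of their 48 windows 23 (47.9%) held ACGTG, beside 19.6% of all 32851 windows of that length and 25.9% of the windows of genes tested. ACGTG was present in the windows of genes with lower values (Slc2a1, Slc16a1, G6pdx) and of genes with higher values (Gapdh, Pdhb) in 48p-HFSCs. These counts describe letters in a window and are no measure of binding.

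The enzymes from aldolase to lactate dehydrogenase made up most of the signal, with 82.8% to 87.5% of the summed FPKM of the 32 genes in every library. Of the 11, 9 were tested, 0 were called and 0 had an unadjusted p under 0.05, beside 10.8% of all genes called higher, 9.15% called lower and 37.4% at that unadjusted p. Their sum was 5704 and 5624 FPKM in 10p-HFSCs, as against 5497 and 11970 in 48p-HFSCs, so the late libraries lay on either side of the early ones. Aldoa, the main aldolase here, was at 700 and 712 FPKM and then at 607 and 1624 (log2 difference 0.49, SE 0.64, adjusted p = 0.61). Aldoc, the brain-type aldolase, was at 25.3 and 23.4 and then at 26.3 and 57.5 FPKM (adjusted p = 0.28).

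Tpi1, which interconverts the triose phosphates, was at 358 and 324 FPKM in 10p-HFSCs, as against 230 and 344 in 48p-HFSCs, with overlapping groups. Pgk1, the first ATP-yielding enzyme, was at 678 and 616 and then at 497 and 1290 FPKM, and Pgam1, phosphoglycerate mutase, at 520 and 630 and then at 481 and 728. In both genes replicate 1 of the 48p-HFSCs was the lowest library and replicate 2 the highest. Pkm, pyruvate kinase, showed the same order at 1145 and 1056 and then 811 and 1749 FPKM (log2 difference 0.11, SE 0.65, adjusted p = 0.91), and Ldha, which turns pyruvate into lactate, was at 622 and 524 and then at 407 and 563.

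The 48p replicates differed from each other by at least 2-fold in 10 of the 32 genes, against 1 gene (Eno1) between the 10p replicates. The second 48p library stood at 2.68 times the first for Aldoa, 2.60 times for Pgk1, 2.37 times for Gapdh and 2.16 times for Pkm, and at 0.368 times for Hk2, while the summed FPKM of the library stood at 2.12 times. On TPM the ratio of the second to the first was 1.26 for Aldoa, 1.22 for Pgk1, 1.11 for Gapdh and 1.0 for Pkm, and 0.17 for Hk2. Leaving out 48p replicate 1 gave log2 differences of -1.37 for Slc2a1, -1.46 for Hk2, 1.11 for Gpi1, 1.21 for Aldoc and 1.43 for Taldo1. Leaving out 48p replicate 2 gave smaller ones for the same genes, at -0.55, -0.15, -0.0, 0.11 and 0.40. For G6pdx the order was the other way, at -0.94 and then -1.09. Each of these fits leaves 1 library in the 48p group.

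Gapdh, glyceraldehyde phosphate dehydrogenase and a common reference gene, was the most abundant of the 32 genes by FPKM in every library. It was at 1488 and 1673 FPKM in 10p-HFSCs, as against 2336 and 5525 in 48p-HFSCs, above both early libraries, yet the log2 difference of 1.19 (SE 0.86) did not pass (adjusted p = 0.36) and ran from 0.57 to 1.81 without 1 library. As a share of the summed FPKM of the 32 genes, Gapdh held 22.0% and 25.3% and then 35.2% and 40.4%. The ratio of Gapdh to Pkm within a library was 1.30 and 1.58 in 10p-HFSCs, as against 2.88 and 3.16 in 48p-HFSCs.

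Enolase 1 has a near-identical copy in the mouse genome. Eno1, the main form in most tissues, was at 167 and 65.0 FPKM in 10p-HFSCs, as against 102 and 83.8 in 48p-HFSCs (adjusted p = 0.81), and its copy Eno1b was at 315 and 427 and then at 443 and 845. The sum of both was 482 and 492 FPKM in 10p-HFSCs, much closer together than either gene, and 545 and 929 in 48p-HFSCs, so the Eno1 value alone is uncertain and turned from -0.17 to 0.55 on the log2 scale when the copies were summed, an alternative chosen after seeing the data. Eno2, the neuronal form, stayed at or below 0.795 FPKM. Gapdh, Pgk1 and Pgam1 also have near-identical pseudogene copies whose reads may be counted with them or lost.

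Lactate leaves the cell through monocarboxylate carriers. Slc16a1, which encodes MCT1, was at 43.3 and 40.5 FPKM in 10p-HFSCs, as against 30.0 and 26.8 in 48p-HFSCs, apart in every library but not called (log2 difference -0.55, SE 0.24, adjusted p = 0.16). Slc16a3, which encodes the lactate exporter MCT4, was at 0.0448 and 0.0625 FPKM and then at 0.432 and 0.288, and Ldhb, the heart-type dehydrogenase subunit, was listed at 0 in all libraries except 48p replicate 1, where it was at 0.0603. Both were below the filter and were not tested.

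Pyruvate dehydrogenase stands at the entry of pyruvate into mitochondrial metabolism. Pdha1, the E1 alpha subunit of pyruvate dehydrogenase, was at 106 and 97.0 FPKM and then at 138 and 172 (log2 difference 0.60, SE 0.29, adjusted p = 0.19). Pdhb, the E1 beta subunit, was at 43.6 and 38.5 and then at 67.9 and 88.4 FPKM (0.90, SE 0.27, adjusted p = 0.066). The groups of both genes were apart on FPKM and overlapped on TPM, where the log2 differences were 0.02 and 0.33. Other genes of the complex and its control did not share this side: of 6 tested, 5 had a log2 difference below 0 and Pdp1 alone was called, higher. Pdp2, a second phosphatase of the complex, went the other way, at 10.2 and 4.81 FPKM and then at 3.04 and 0.826. Its log2 difference was -1.57 (SE 0.50) and was not called (adjusted p = 0.079). Pdpr, the phosphatase regulatory subunit, was at 4.11 and 1.14 and then at 0.611 and 0.0388 FPKM (-1.35, SE 0.47, adjusted p = 0.095). Pdhx, the E3-binding subunit, was at 11.9 and 10.7 FPKM and then at 6.68 and 7.03 (-0.65, SE 0.26, adjusted p = 0.13).

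Of the kinases that inhibit the complex, Pdk2 was at 1.47 and 1.39 FPKM in 10p-HFSCs, as against 3.43 and 3.91 in 48p-HFSCs. Its adjusted p was 0.048 with a log2 difference of 0.94 (SE 0.25), just under the fold limit, so it was not called. Pdk1, the hypoxia-inducible kinase, was at 8.80 and 7.40 and then at 10.1 and 5.36 FPKM, and Pdk3 at 25.8 and 30.2 and then at 25.8 and 46.2, with overlapping groups in both. Pdk3 held most of the summed kinase FPKM, with 71.5% and 77.5% and then 65.6% and 83.3%, while the share of Pdk2 went from 4.08% and 3.57% to 8.73% and 7.06%.

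Of the 4 pentose phosphate genes among the 32, G6pdx alone was called. G6pdx, the glucose 6-phosphate dehydrogenase that opens the oxidative arm (chromosome X, 74409483 to 74429194), was at 82.6 and 70.0 FPKM in 10p-HFSCs, as against 35.1 and 39.1 in 48p-HFSCs. It fell from 76.3 ± 8.97 to 37.1 ± 2.80 (SD, n = 2 each), 2.06-fold, with a log2 difference of -1.02 (SE 0.25, adjusted p = 0.041). This value lies at the fold limit: the call was lost with median-of-ratios scaling (-1.0, just inside the limit before rounding, adjusted p = 0.039) and without 10p replicate 1 (-0.90, adjusted p = 0.42), 10p replicate 2 (-1.14, adjusted p = 0.28), 48p replicate 1 (-0.94, adjusted p = 0.042) or 48p replicate 2 (-1.09, adjusted p = 0.052), and held on TPM (-1.60, adjusted p = 0.025). Pgd, the next dehydrogenase of that arm, was at 88.8 and 80.8 and then at 52.1 and 57.0 FPKM, apart in every library but not called (-0.63, SE 0.25, adjusted p = 0.13).

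In the non-oxidative arm, Tkt, transketolase, was at 125 and 98.0 FPKM and then at 209 and 312 (log2 difference 1.2, SE 0.35, adjusted p = 0.063). Taldo1, transaldolase, was at 178 and 192 and then at 244 and 499 FPKM (0.91, SE 0.44, adjusted p = 0.19). Neither was called, and both were apart between the groups on FPKM and on TPM. The ratio of Tkt to G6pdx within a library was 1.52 and 1.40 in 10p-HFSCs, as against 5.96 and 7.97 in 48p-HFSCs, and that of Taldo1 to Pgd was 2.00 and 2.38 and then 4.69 and 8.75. Pairs for these ratios were chosen after the values were seen, so they describe these 4 libraries and carry no test. Pgls and Rpia overlapped between the groups on FPKM. Pgls, the lactonase of the oxidative arm, was at 89.6 and 122 FPKM and then at 74.0 and 156 (log2 difference 0.04, SE 0.43). Rpia, the ribose 5-phosphate isomerase of the non-oxidative arm, was at 47.6 and 55.5 and then at 32.7 and 62.4 (-0.18, SE 0.36). On TPM both were apart and lower in 48p-HFSCs. Pgls was at 154 and 169 TPM and then at 111 and 110, and Rpia at 81.9 and 77.2 and then at 49.1 and 44.1. Neither was called on TPM (limma, adjusted p = 0.30 and 0.23).

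**Figure D4:**
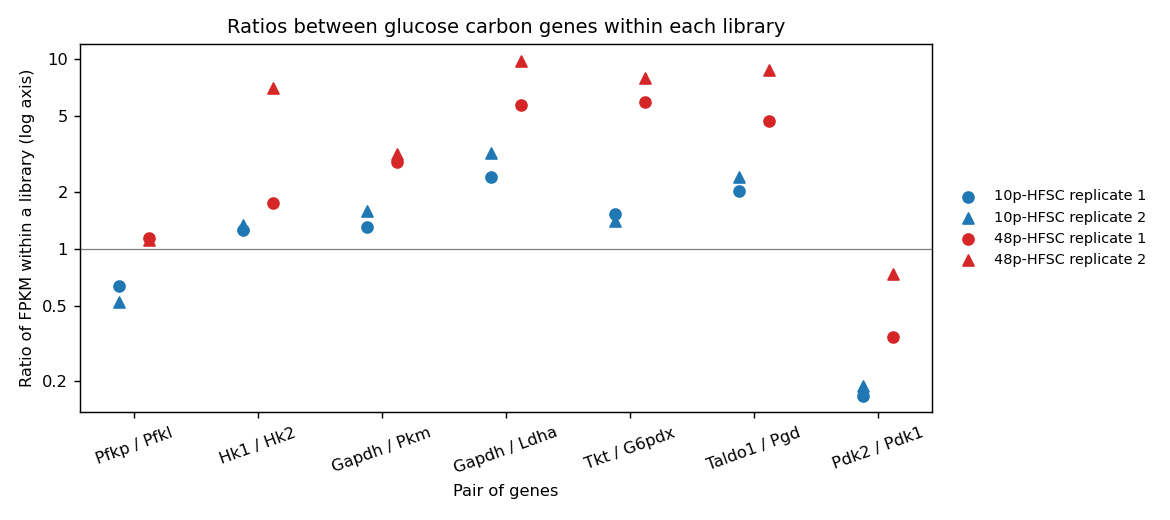
Ratio of the FPKM of gene pairs within each library (log axis), with 10p-HFSCs in blue, 48p-HFSCs in red, replicate 1 as circles and replicate 2 as triangles. Ratios within a library do not depend on the scale between libraries; Tkt to G6pdx lies at 1.52 and 1.40 in 10p-HFSCs, as against 5.96 and 7.97 in 48p-HFSCs.

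As a whole the 32 genes took 1.17% and 0.919% of the summed FPKM of a library in 10p-HFSCs, as against 0.997% and 0.967% in 48p-HFSCs, and the groups overlapped. Of these genes, 14 ranked above the 90th percentile of all gene symbols in every library.

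Other genes of glucose metabolism were counted over lists of further transporters, isoenzymes and branches (100 genes, 99 matched, 64 tested). Of the 64, 6 were called higher and 7 lower (9.4% and 10.9%), close to the shares of all genes, and 51 were not called. Among the further pentose phosphate genes 0 of 8 were called in limma, with 1 at an unadjusted p under 0.05. In the glycogen, hexosamine and polyol list 3 of 12 were called lower and 0 higher, and in the list of other glycolytic isoenzymes 2 of 8 were called higher and 0 lower. Of all genes 9.15% were called lower and 10.8% higher, and nothing particular to either list is read from so few.

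The 6 genes called higher were Slc2a5, Eno3, Ldhd, G6pc3, Pdp1 and Pfkfb1. Slc2a5, the fructose carrier GLUT5, was at 0.0676 and 0 FPKM in 10p-HFSCs, as against 7.70 and 3.40 in 48p-HFSCs (adjusted p = 0.0075). Eno3, the muscle enolase, was at 6.05 and 10.6 and then at 28.8 and 74.6 FPKM (log2 difference 2.39, adjusted p = 0.025). Ldhd, a mitochondrial D-lactate dehydrogenase, was listed at 0 in both 10p libraries and was at 6.60 and 5.81 FPKM in 48p-HFSCs (adjusted p = 0.0014), and G6pc3, a widely expressed glucose 6-phosphatase, was listed at 0 and then at 5.32 and 12.3 FPKM (adjusted p = 0.0044). Pdp1, a phosphatase that reactivates pyruvate dehydrogenase, rose from 2.38 and 1.97 to 11.2 and 8.36 FPKM (adjusted p = 0.012), while Pdp2 was lower, as given above. Pfkfb1, the liver-type PFKFB, rose from 1.62 and 1.42 to 4.34 and 4.22 FPKM (adjusted p = 0.034). The calls of Pdp1 and Pfkfb1 were lost on TPM (adjusted p = 0.26 and 0.48), although they lay 1.90 and 1.26 above the median log2 difference of all genes there, against 1.79 and 1.10 on FPKM.

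Of the genes called lower, Gyg, the glycogenin that primes glycogen, was at 8.24 and 10.5 FPKM in 10p-HFSCs and listed at 0 in both 48p libraries (adjusted p = 0.0012), and Gbe1, the glycogen branching enzyme, fell from 32.6 and 24.02 to 6.44 and 8.76 FPKM (log2 difference -1.77, adjusted p = 0.013). Gfpt1, the entry enzyme of the hexosamine pathway, fell from 20.3 and 12.9 to 6.03 and 6.20 FPKM (adjusted p = 0.038), and Shmt1, the cytosolic serine hydroxymethyltransferase, from 27.4 and 17.2 to 9.44 and 6.01 (adjusted p = 0.041), with both calls lost on TPM (adjusted p = 0.11 and 0.084), where the log2 differences were -1.82 and -1.95 against -1.27 and -1.41 on FPKM, about as far from the median of all genes on either scale.

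Among 12 regulators tested 3 were called lower and 0 higher (beside 9.15% and 10.8% of all genes), and nothing particular to the list is read from so few. Hif1a, a subunit of the hypoxia-inducible factor whose core motif is marked above in its ACGTG form alone, fell from 89.4 and 60.0 to 30.1 and 22.3 FPKM (log2 difference -1.46, adjusted p = 0.026). Egln3, a prolyl hydroxylase that marks HIF for degradation and is itself induced by HIF, was at 69.4 and 61.6 FPKM and listed at 0 in both 48p libraries (adjusted p = 0.00056). Ppargc1a, a coactivator of mitochondrial genes, fell from 22.3 and 18.2 to 0.198 and 0.0167 FPKM (-4.26, adjusted p = 0.00092). Genes listed at 0 in 1 group alone are given with no fold, since an exact 0 in FPKM can be a failed estimate. Of 12 genes commonly taken as steady in every cell, 11 were tested and 0 were called in limma, with 1 at an unadjusted p under 0.05.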

How the data were processed

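RNA from 10p- and 48p-HFSCs (2 libraries each, grouped by passage number in the labels) was sequenced by the authors as single-end reads from stranded mRNA libraries. The authors mapped the reads to mm10 and deposited 1 FPKM value per gene symbol and library; their processing notes name TopHat2 2.1.1, Bowtie2 2.2.8, SAMtools 0.1.18 and Cuffdiff 2.2.1, and their methods name other Bowtie2 and SAMtools versions. The gene annotation, strand setting and handling of multiply mapped reads are not given in the sources used here. FPKM are not counts, so no count test was run.

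Values were analysed as log2(FPKM + 1). The filter kept 11018 genes that reached an FPKM of 1 in 2 or more libraries. Both groups were fitted with limma 3.58.1 (R 4.3.3; lmFit, eBayes with a variance trend), p-values were adjusted over all genes kept, and the script was tested on simulated data. On this scale the folds of genes with low values come out too small. Genes were called at an adjusted p under 0.05 and a log2 difference of at least 1 in size. Shares of a step were compared by exact permutation. Positions came from GENCODE M21 (GRCm38, the assembly of mm10) and start-site windows from RefSeq.

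The 32 genes and the other lists were chosen with earlier results of these data known. All 32 are named; of the other glucose lists, the called genes with up to the 6 largest differences in each direction among those with groups apart, plus Gfpt1, the 1 called gene outside that limit, and markers beside results. Pdhx, Pdp2, Pdpr, Pfkfb4, Pgls and Rpia were named after their values were seen. Alternatives covered pseudocount, filter, scaling, variance prior, replicate block, length and GC correction, thresholds and leaving out each library.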

Additional observations from a re-analysis of the deposited data

How the results depend on the processing

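Over all genes, calls numbered 1189 higher and 1008 lower; TPM gave 623 higher, no filter on low values gave 637 lower, and leaving out 1 library at a time gave 35 to 1936 higher and 140 to 1875 lower, the lowest counts coming with 1 library left in the 10p group. The lone library is then assumed to vary like the other group. Of the 28 glucose carbon genes tested, 0 were called higher: 1 with median-of-ratios scaling (Pfkp), 1 at an adjusted p under 0.1, 1 with no fold limit (Pdk2), 2 after length and GC correction with or without the replicate block (Pfkp and Tkt), and 0 to 6 without 1 library; 3 lower became 1 to 4. Of the other glucose genes, 6 higher became 0 to 12 and 7 lower became 3 to 9 without 1 library (4 without 48p replicate 2) and 4 with no filter. Pseudocount 0.1, the variance prior and a mean FPKM filter changed no call or direction of the 28.

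Same-numbered libraries shared only a number (correlation of their deviations 0.408 over 2 pairs, with no source saying that they were prepared together). With the replicate block, calls numbered 1613 higher and 1497 lower, all 2197 calls without it among them; 1 of the 28 genes was called higher (Tkt, adjusted p = 0.020) and 3 lower.

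On TPM the log2 difference turned for Hk1 (-0.03), Gpi1 (-0.03), Pfkl (-0.51), Pfkfb2 (-0.23), Aldoa (-0.09), Pgk1 (-0.28), Pgam1 (-0.54), Pkm (-0.47) and Pdk3 (-0.27). After length and GC correction, with or without the block, it turned for Pgam1 (-0.27), Pkm (-0.03) and Pdk1 (0.15). Without 1 library it ran from -0.05 to 0.17 for Pfkl, -0.22 to 1.2 for Aldoa, -0.57 to 0.01 for Tpi1, -0.38 to 1.0 for Pgk1, -0.25 to 0.35 for Pgam1, -0.85 to 0.50 for Eno1, -0.44 to 0.67 for Pkm, -0.51 to 0.29 for Pdk1, -0.11 to 0.71 for Pdk3 and -0.0 to 1.11 for Gpi1. Eno1 and Eno1b summed gave 0.55. The cause was not tested. Shares, in percentage points (48p minus 10p), moved after length and GC correction to -4.9 for Pfkl, -25.4 for Pfkm, 30.3 for Pfkp and 0.3 for Pdk1, and without 1 library ran from -3.3 to 0.7 for Pfkl, -24.3 to -23.1 for Pfkm, 23.5 to 26.4 for Pfkp, 7.1 to 31.1 for Hk1, -31.1 to -7.1 for Hk2, -12.0 to 4.0 for Pdk1, 3.2 to 4.9 for Pdk2 and -8.9 to 8.8 for Pdk3. With depth unknown, no limit could be set for genes listed at 0.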
